A study of Mus musculus with 8 samples.

Results

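The genes described here are 10 of the 27998 genes in the deposited gene list: *Dusp1*, *Dusp2*, *Dusp6*, *Zfp36*, *Zfp36l1*, *Btg1*, *Btg2*, *Socs3*, *Tob1* and *Rhob*. They were taken by symbol as early-response genes whose products act back on signalling or shorten the life of mRNA, and all 10 were found. RNA was counted in single microglia, the macrophages that reside in brain and spinal cord, sorted by YFP from the lumbar spinal cord of young adult C57BL/6 mice. The animals of all 8 libraries carried Cx3cr1-yfp-creER/+, a YFP and a tamoxifen-inducible Cre that the *Cx3cr1* locus drives, so other *Cx3cr1*-expressing myeloid cells can carry the reporter too. The 4 control libraries had no other allele, and the 4 libraries labelled A20 cKO came from animals that also carried Tnfaip3 fl/fl, floxed alleles of the gene for the ubiquitin-editing protein A20. Per the study's methods, tamoxifen was given for recombination. In each genotype 1 library was naive and 1 each was made 1, 2 and 3 days after bilateral sciatic nerve transection, an injury after which lumbar microglia divide. Cords of several animals were pooled for each library, so every group had 1 library, no test between groups was possible, and all intervals below are 95% intervals of counting error only.

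DUSP1, DUSP2 and DUSP6 are phosphatases that switch off MAP kinases, and their genes are themselves switched on by MAP kinase signalling. ZFP36 (tristetraprolin, TTP) and ZFP36L1 bind AU-rich elements of short-lived mRNAs, and BTG1, BTG2 and TOB1, known as antiproliferative proteins, bind the CCR4-NOT deadenylase, which removes poly(A) tails. SOCS3 inhibits cytokine signalling through JAK kinases and STAT3, and RHOB is a short-lived small GTPase whose gene is an immediate early gene. In macrophages such genes limit how long an inflammatory response lasts, and they are also known to respond to handling of cells during isolation.

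All 10 genes matched a RefSeq promoter on GRCm38.p6. The 250 bases before the start of 4 of them are printed because they carried the letters of known signal-responsive elements and because these genes had among the largest differences below. The windows lie at chr17:26508473-26508722 for *Dusp1*, chr1:134079156-134079405 for *Btg2*, chr7:28379229-28379478 for *Zfp36* and chr11:117969367-117969616 for *Socs3*, all on the minus strand, and are written 5′ to 3′ with the searched letters in capitals.
Dusp1: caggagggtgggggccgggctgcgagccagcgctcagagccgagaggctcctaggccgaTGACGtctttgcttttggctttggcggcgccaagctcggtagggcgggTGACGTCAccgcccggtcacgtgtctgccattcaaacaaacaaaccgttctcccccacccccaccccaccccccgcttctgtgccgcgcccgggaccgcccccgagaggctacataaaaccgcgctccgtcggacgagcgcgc
Btg2: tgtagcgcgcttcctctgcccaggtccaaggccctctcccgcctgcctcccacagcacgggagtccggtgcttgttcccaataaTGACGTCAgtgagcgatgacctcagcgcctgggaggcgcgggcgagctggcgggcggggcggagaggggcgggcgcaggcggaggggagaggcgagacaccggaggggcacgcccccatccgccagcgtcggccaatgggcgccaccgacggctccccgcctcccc
Zfp36: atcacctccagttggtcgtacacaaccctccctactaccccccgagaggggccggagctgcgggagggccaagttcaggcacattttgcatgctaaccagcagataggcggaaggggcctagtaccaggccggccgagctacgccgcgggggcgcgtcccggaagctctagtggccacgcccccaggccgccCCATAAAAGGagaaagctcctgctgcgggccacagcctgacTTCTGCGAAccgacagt
Socs3: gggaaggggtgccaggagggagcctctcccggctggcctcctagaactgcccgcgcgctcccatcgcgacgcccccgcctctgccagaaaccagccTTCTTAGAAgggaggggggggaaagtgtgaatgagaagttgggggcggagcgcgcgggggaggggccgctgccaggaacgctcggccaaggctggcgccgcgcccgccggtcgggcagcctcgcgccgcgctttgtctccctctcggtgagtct
The cAMP response element TGACGTCA lay 143 to 136 bases before the start of *Dusp1* and 166 to 159 bases before that of *Btg2*. It was found in 1.55% of the 32851 promoters of the same length. Its part TGACG, counted on both strands and so also inside TGACGTCA, was in 17.8% of promoters and in 4 of the 10 genes, *Dusp1*, *Btg2*, *Btg1* and *Tob1*. A CArG box, the letters bound by serum response factor, lay 58 to 49 bases before the start of *Zfp36* and was in 1.47% of promoters. TTCNNNGAA, the STAT element, was in 7.02% of promoters, in *Socs3* at 154 to 146 bases and in *Zfp36* at 17 to 9 bases before the start. The AP-1-like TGANTCA was in 6.75% of promoters and, among the 10 genes, in *Zfp36l1*. *Dusp2*, *Dusp6* and *Rhob* had none of the 5 searched motifs in this window, and a match is a description of letters, not of binding.

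A cell entered the sums with 1000 or more UMIs, 500 or more genes and no more than 10% of UMIs from mitochondrial genes. This held for 14626 of 14883 barcodes, between 558 and 3585 per library, with 1620481 to 15817426 UMIs per library. All 8 microglia markers were found in every library and summed to between 11892 and 24672 CPM (a gene's UMIs in every 1000000 UMIs of the kept cells). Markers of monocytes summed to 1.85 to 83.7 CPM, of oligodendrocytes to 22.6 to 166 CPM and of neutrophils to 0 to 35.0 CPM, with all 3 neutrophil markers at 0 in control naive, day 1 and day 2. Control day 3 and the A20 cKO libraries had the higher values of these 3 lists, and their part in the results was not tested. There the monocyte sum was mostly *Plac8*, at 83.4 CPM in A20 cKO day 2. *Ccr2* was at 0.33 to 2.36 CPM over all libraries, with 1.85 CPM in control naive, and *Ly6c2* at 0 to 0.66 CPM. Where 4 values are listed for a genotype, they run from naive to day 1, day 2 and day 3. *Tnfaip3* itself had 24.1, 25.3, 6.83 and 20.3 CPM under control, and its A20 cKO levels were 47.4, 42.3, 52.4 and 67.7 CPM. The transcript was thus higher in the libraries labelled A20 cKO, at every time. The sources used here do not say which exons are floxed, so these 3′ tags may lie outside the deleted part, and A20 cKO below means the libraries so labelled. Control day 3 and the 4 A20 cKO libraries shared 256 barcodes over their 10 pairs of libraries, against 27 over the 3 pairs of the remaining control libraries and 98 over the 15 pairs between both sets. Between 1.59% and 7.0% of the kept cells of a library carried such a barcode, and values without them are given where they differ.

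All 10 genes had their highest level in control day 1. Summed over the 10 genes, the level was 2520.2 CPM in control naive, 9887 in control day 1, 1992 in control day 2 and 3018 in control day 3. In the A20 cKO libraries the sum was 4462 CPM in naive, 2082 at day 1, 1719 at day 2 and 3361 at day 3. The A20 cKO day 1 library, made at the same time after injury as control day 1, was thus below A20 cKO naive, and A20 cKO day 2 was the lowest of the 8 libraries. The 11 genes of a list known to rise when cells are taken from tissue, among them *Fos*, *Jun*, *Egr1* and the heat shock gene *Hspa1a*, had a sum that was also highest in control day 1 and lowest in A20 cKO day 2, though not each gene followed it. The sum was 912, 16569, 1526 and 2335 CPM in the control libraries and 3573, 828, 713 and 2947 CPM in the A20 cKO libraries. The part of these genes in the levels of the 10 genes was not tested. *Fos* was found in 3313 of 3323 kept cells of control day 1, a share of 99.7%, against 4.93% in control naive and 2.71% in A20 cKO day 1. *Hspa1a* was at 155 CPM in control day 1 and at 0 to 5.56 CPM in the other 7 libraries.

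**Figure D1:**
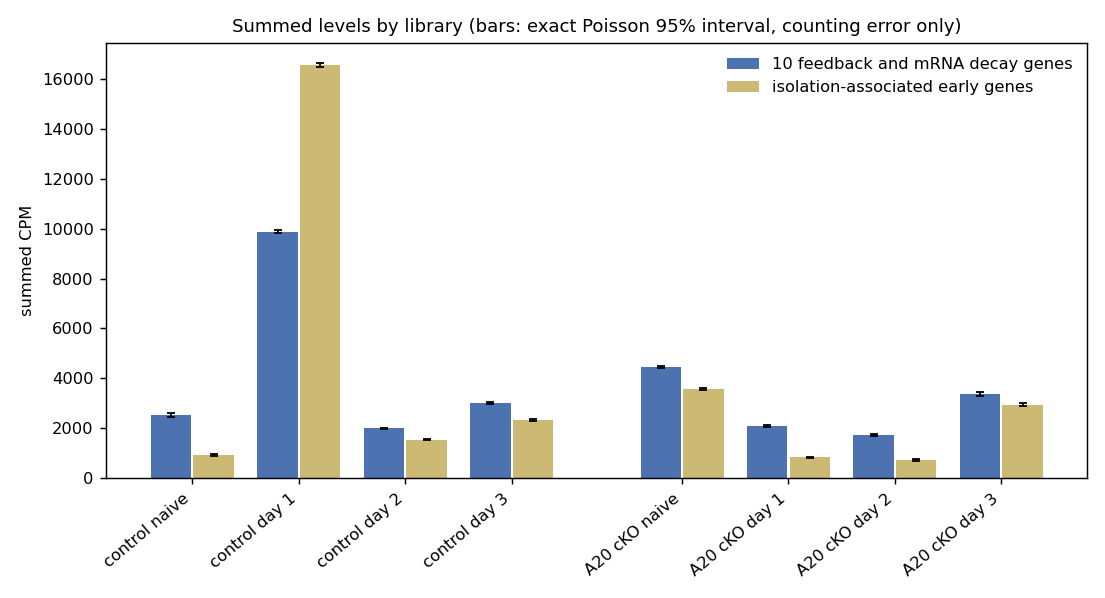
Summed CPM (vertical axis, linear from 0) of the 10 feedback and mRNA decay genes and of 11 isolation-associated early genes in each of the 8 libraries (horizontal axis), with exact Poisson 95% intervals as error bars. Both sums are highest in control day 1, at 9887 and 16569 CPM, and both are low in A20 cKO day 1 and day 2.

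The question of which genes of the group differed with time after injury and with genotype was addressed by 11 pairs of libraries, read at a threshold of 2-fold (a log2 ratio of 1 or -1). In control day 1 against control naive, 7 of the 10 genes were at least 2-fold higher and 0 lower, against 3.82% higher and 7.25% lower of the 8866 genes with at least 100 UMIs in both libraries together. *Dusp6*, *Btg1* and *Tob1* were the 3 below the threshold, with log2 ratios of 0.94, 0.71 and 0.31. In control day 2 against day 1, 9 of 10 were at least 2-fold lower and 0 higher, with backgrounds of 1.83% and 3.80%, and *Tob1* was the exception at -0.48. Both comparisons share the control day 1 library. In control cells that the study scored as in S phase, its own list of genes higher at day 1 than at day 2 already names *Dusp1*, *Dusp6*, *Zfp36*, *Zfp36l1*, *Btg1*, *Btg2*, *Socs3* and *Rhob*. The count for day 2 against day 1 is thus not independent of that list. The same limit holds for every other count that uses the control day 1 library, among them that of day 1 against naive. The 10 genes were also chosen with earlier results of these data known. Against control naive, *Dusp1* and *Socs3* were the 2 genes past 2-fold at day 2, both higher, with backgrounds of 5.92% higher and 6.28% lower. *Dusp1*, at 1.04, was below 2-fold in 4 of its 9 alternatives, at 0.61 in cells without *Fos*. The same 2 were higher at day 3, and 0 lower, with backgrounds of 8.76% and 2.32%.

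In the A20 cKO libraries the naive one was the highest for 7 of the 10 genes. At day 1 against A20 cKO naive, 5 of 10 genes were at least 2-fold lower (*Dusp1*, *Zfp36*, *Btg2*, *Tob1* and *Rhob*) and 0 higher, with backgrounds of 1.39% lower and 1.56% higher. At day 2, 6 were lower (the same 5 and *Dusp6*) and 0 higher, with backgrounds of 2.65% and 2.86%. At day 3, 0 of 10 were past 2-fold in either direction, with 1.92% of all genes higher and 2.00% lower. These 3 comparisons share the A20 cKO naive library. 2 of the 10 genes, *Dusp2* and *Tob1*, had fewer than 100 UMIs in both libraries together in all comparisons that did not use control day 1, and their ratios are correspondingly imprecise. Among the 8 genes with the 100 UMIs that the background requires, 4 were lower at day 1 and 5 at day 2.

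Between genotypes, A20 cKO naive was at least 2-fold above control naive in 4 of 10 genes, *Dusp1*, *Dusp2*, *Btg2* and *Socs3*, and below it in 0, with backgrounds of 7.43% and 2.22%. The interval of *Dusp2* included 0 (-0.41 to 3.58), and among the 8 genes with 100 UMIs 3 were higher. At day 1 all 10 were at least 2-fold lower in A20 cKO, with backgrounds of 3.25% lower and 15.5% higher, while the median of all genes was at a log2 ratio of 0.20 and that of the 10 genes at -1.89. That count too uses the control day 1 library and is not independent of the study's list. At day 2 *Dusp2* was higher and *Tob1* lower, on 58 and 88 UMIs in both libraries, and among the 8 genes with 100 UMIs 0 passed 2-fold, with backgrounds of 10.7% and 4.66%. At day 3 the count was 0 in both directions, with backgrounds of 1.86% and 2.40%. No replicate spread stands behind any of these ratios, and the library, its pooled animals, its isolation and its genotype or time cannot be told apart.

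**Figure D2:**
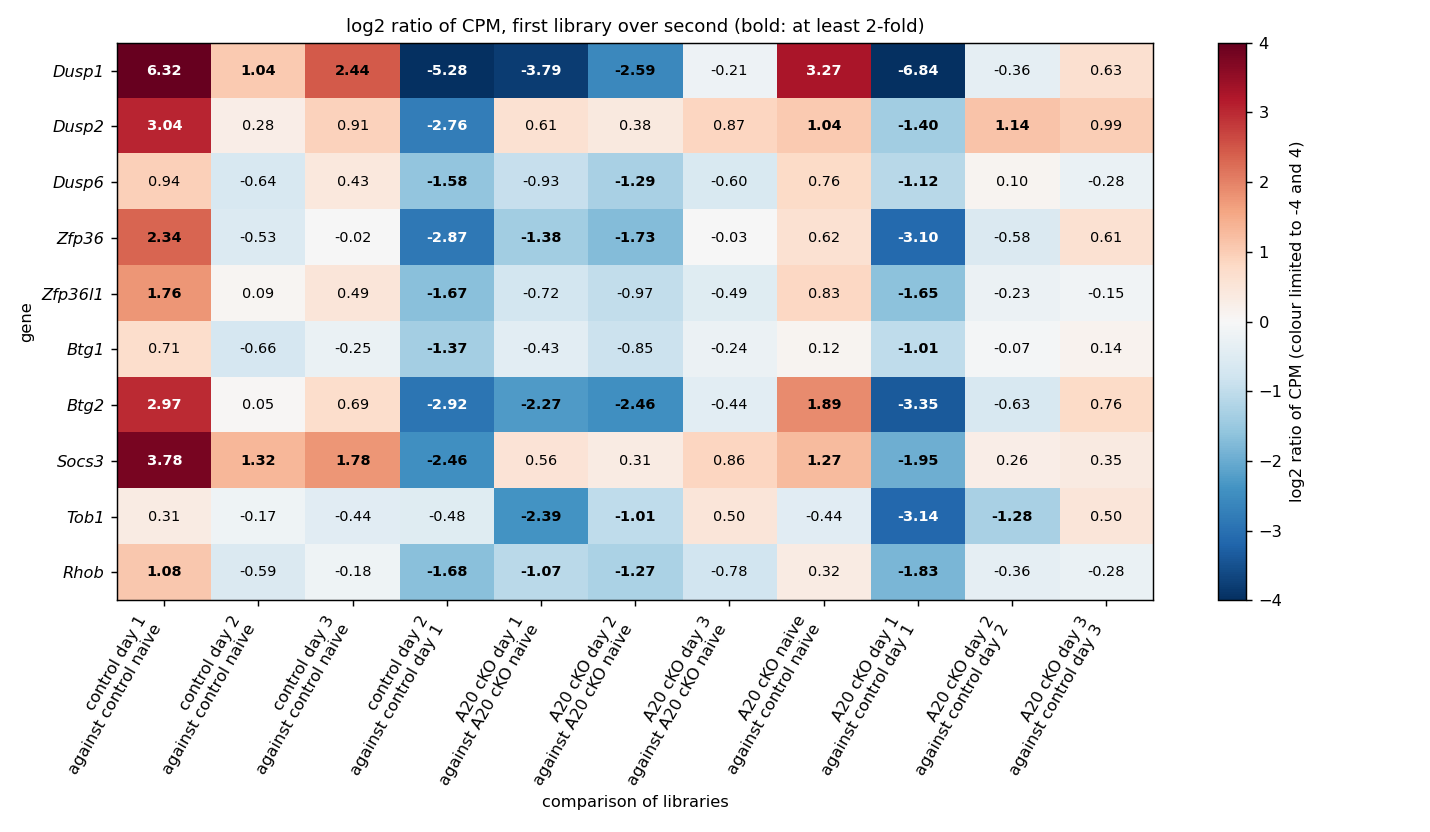
log2 ratio of CPM (colour and printed value) for each of the 10 genes (rows) in the 11 comparisons of 2 libraries (columns), with ratios of at least 2-fold in bold. The column of control day 1 against control naive holds positive values only, from 0.31 to 6.32, and that of A20 cKO day 1 against control day 1 holds negative values only, from -1.01 to -6.84.

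Of the MAP kinase phosphatases, *Dusp1* (ENSMUSG00000024190, chr17:26505590-26562128 on GRCm38), which acts mainly on JNK and p38, had the widest range of the 10 genes. Its level was 24.1 CPM in control naive, 1948 in control day 1, 50.1 in control day 2 and 132 in control day 3. In A20 cKO it was 236 CPM in naive, 16.8 at day 1, 38.9 at day 2 and 204 at day 3. Control day 1 stood 8.27-fold above the next library, and the lowest level, in A20 cKO day 1, did not differ from control naive beyond counting error, with a log2 difference between them of 0.52 (-0.12 to 1.15). The log2 ratio of day 1 to naive was 6.32 (5.89 to 6.83) in control and -3.79 (-4.24 to -3.41) in A20 cKO. In cells thinned to 2000 UMIs each, which left out 935 shallower cells, a *Dusp1* UMI was found in 4.98%, 91.2%, 8.48% and 20.4% of control cells from naive to day 3 and in 30.8%, 2.05%, 6.55% and 23.8% of A20 cKO cells. Over all kept cells it was found in 6.51%, 97.5%, 17.2% and 29.8% under control, and A20 cKO had 39.0%, 4.18%, 13.2% and 38.2%. No cell class known to lack *Dusp1* was sorted, so no background share from free RNA was measured. The annotated *Dusp1* locus overlaps *Ergic1* on the opposite strand.

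*Dusp6* (ENSMUSG00000019960, chr10:99263231-99267489), a phosphatase specific for ERK, ranged 2.99-fold. Control libraries held 453, 872, 291 and 612 CPM of it, and A20 cKO libraries 766, 401, 313 and 506 CPM. Control day 2 was the lowest library, and A20 cKO naive was the highest after control day 1. *Dusp2* (ENSMUSG00000027368, chr2:127336159-127338376), a nuclear phosphatase of immune cells, was scarce, with 3 to 250 UMIs per library. Control libraries held 1.85, 17.8, 2.59 and 3.98 CPM, while A20 cKO had 4.37, 6.6, 5.6 and 7.87 CPM. Apart from control day 1, the neighbours in this order did not differ beyond counting error, and the ratio of control day 1 to control naive, where 3 UMIs were counted, was 3.04 on the log2 scale (1.70 to 5.55).

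**Figure D3:**
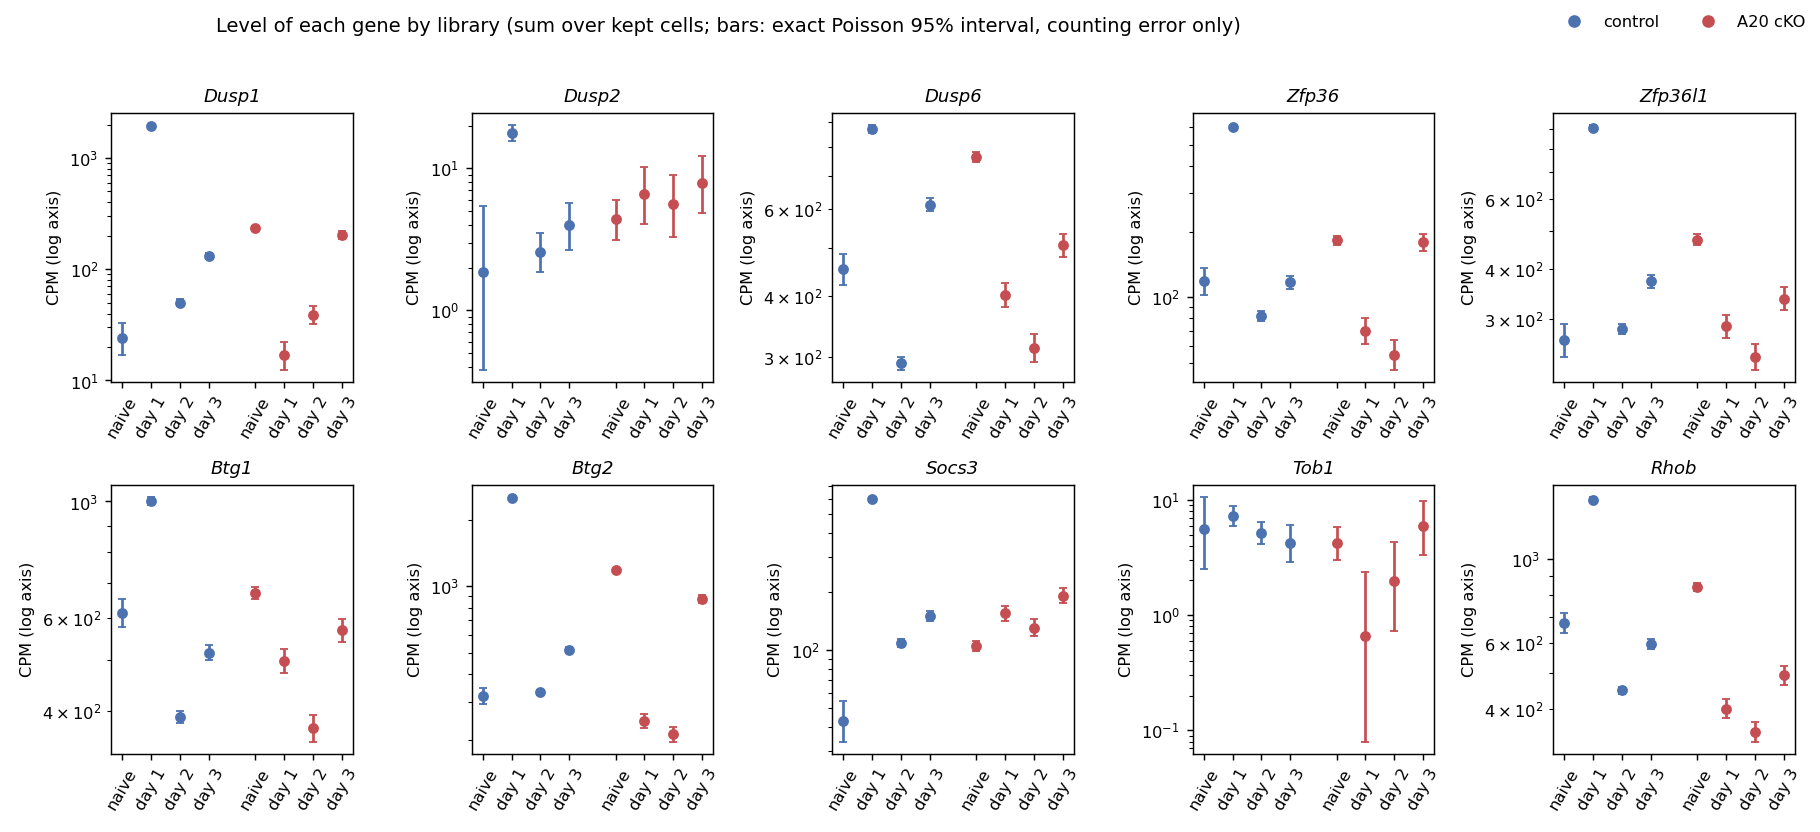
Level of each of the 10 genes in CPM (vertical log axis, 1 panel per gene) in the 4 control libraries (blue) and the 4 A20 cKO libraries (red) from naive to day 3, with exact Poisson 95% intervals. Control day 1 is the highest point in all 10 panels, and *Dusp2* and *Tob1* have wide intervals.

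*Zfp36* (ENSMUSG00000044786, chr7:28376784-28380253), which encodes TTP, was at 118 CPM in control naive, 601 in control day 1, 82.1 in control day 2 and 117 in control day 3. In A20 cKO it was at 182 CPM in naive, 70.0 at day 1, 54.7 at day 2 and 179 at day 3. A20 cKO naive and day 3 did not differ from each other beyond counting error, nor did control naive and control day 3. The log2 ratio of day 1 to naive was 2.34 (2.14 to 2.56) in control and -1.38 (-1.59 to -1.17) in A20 cKO. Of the thinned cells 19.3%, 64.6%, 15.0% and 21.0% had a *Zfp36* UMI under control, while for A20 cKO the shares were 27.8%, 12.3%, 8.95% and 27.0%. Over all kept cells they came to 26.4%, 81.8%, 28.6% and 31.4% and to 38.2%, 19.9%, 20.4% and 45.0%. *Zfp36l1* (ENSMUSG00000021127, chr12:80107754-80113013), whose product binds the same elements, had control levels of 266, 902, 284 and 374 CPM and A20 cKO levels of 474, 288, 241 and 338 CPM. It ranged 3.74-fold from A20 cKO day 2 to control day 1, the same libraries between which *Zfp36* ranged 11-fold. Both loci overlap an antisense gene in the annotation, and whether the counting used strand is not given in the sources used here.

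*Btg2* (ENSMUSG00000020423, chr1:134075170-134079120), a target of p53 and an early response gene, was at 318 CPM in control naive, 2505 in control day 1, 330 in control day 2 and 514 in control day 3. In A20 cKO it was at 1179.6 CPM in naive, 245 at day 1, 214 at day 2 and 871 at day 3. Control naive and control day 2 did not differ beyond counting error. A20 cKO naive was 3.70-fold above control naive, and A20 cKO day 1 was at a log2 ratio of -3.35 (-3.46 to -3.25) to control day 1. Under control, 45.6%, 94.1%, 43.9% and 51.9% of the thinned cells carried *Btg2*, and A20 cKO shares were 71.2%, 35.3%, 30.8% and 55.8%. Over all kept cells the shares came to 53.9%, 97.9%, 65.1% and 64.8% and to 79.1%, 49.5%, 50.8% and 74.0%. *Btg1* (ENSMUSG00000036478, chr10:96617006-96622809), its close relative, had the narrowest range, 2.70-fold from A20 cKO day 2 to control day 1. Under control it had 614, 1002, 389 and 516 CPM, and A20 cKO levels were 669.8, 497, 370.5 and 568 CPM. *Tob1* (ENSMUSG00000037573, chr11:94211454-94215495) was counted with 9, 102, 82 and 31 UMIs in the control libraries and with 38, 2, 6 and 15 UMIs in the A20 cKO libraries. No neighbours in the order of its levels, from 7.26 CPM in control day 1 to 0.66 CPM in A20 cKO day 1, differed beyond counting error. Both *Tob1* UMIs of A20 cKO day 1 lay in cells whose barcode was also found in another library.

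*Socs3* (ENSMUSG00000053113, chr11:117966079-117970047) was at 43.2 CPM in control naive, 599 in control day 1, 109 in control day 2 and 149 in control day 3. In A20 cKO it was at 105 CPM in naive, 155 at day 1, 130.2 at day 2 and 190.1 at day 3. All 3 injured A20 cKO libraries were above A20 cKO naive, with log2 ratios of 0.56 (0.40 to 0.72), 0.31 (0.14 to 0.48) and 0.86 (0.70 to 1.02). *Socs3* was the only gene of the 10 whose intervals lay above 0 in all 3 of these ratios, and at day 1 and day 2 those of 8 and 7 other genes lay below 0. Control naive was the lowest of the 8 libraries for *Socs3*, also by the share of thinned cells with a UMI. That share was 8.17%, 57.9%, 17.9% and 21.8% under control, and A20 cKO had 15.6%, 23.7%, 20% and 26.4%. Over all kept cells it came to 10.2%, 75.3%, 31.9% and 32.6% and to 20.4%, 35.0%, 35.2% and 39.8%. *Rhob* (ENSMUSG00000054364, chr12:8497661-8500009) had 676, 1434, 449 and 596 CPM under control, with A20 cKO levels of 842, 402, 349 and 491 CPM. All neighbours in the order of *Rhob* levels differed beyond counting error, and its ratios of day 1 to naive were 1.08 in control and -1.07 in A20 cKO on the log2 scale.

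In control day 1 the share of thinned cells with a UMI ran from 57.9% for *Socs3* to 94.1% for *Btg2* among 8 of the genes, and was 3.07% for *Dusp2* and 1.58% for *Tob1*. In thinned cells the median number of the 10 genes with a UMI was 7 in control day 1, 4 in control day 3 and A20 cKO naive, 2 in A20 cKO day 2 and 3 in the other 4 libraries. At least 5 of the 10 genes were found in 90.4% of the thinned cells of control day 1, while elsewhere the share was 5.27% to 42.3%. The 10% of thinned cells with the most *Btg2* UMIs held 25.5% of them in control day 1 and between 38.3% and 52.5% in the others. Such a share rises by counting alone where cells hold fewer UMIs of the gene, so it does not measure evenness apart from the level. Control day 1 had 15877 *Btg2* UMIs in 3225 thinned cells, and A20 cKO day 2 had 276 in 626. A *Btg2* UMI was found in 79.1% of the thinned cells with *Dusp1* and 67.6% of those without in A20 cKO naive, and in 71.1% and 51% in A20 cKO day 3. The shares were 60.8% and 49.6% in control day 3, 94.5% and 89.8% in control day 1 and 51.2% and 43.2% in control day 2, and in the other 3 libraries fewer than 50 cells had *Dusp1*. For *Zfp36* they were 33.4% and 25.3% in A20 cKO naive and 35.2% and 24.4% in A20 cKO day 3, but 13.2% and 15.2% in control day 2. *Dusp6*, the other gene looked at, had the higher share in cells with *Dusp1* in these 5 libraries, 76.4% and 69.9% in A20 cKO naive. In the libraries with few such cells, the share was lower in cells with *Dusp1* for *Zfp36* in control naive (12% and 19.7%) and for *Dusp6* in control naive (56% and 60.2%) and A20 cKO day 1 (41.2% and 54.4%). It was higher in the remaining cases, among them *Zfp36* in A20 cKO day 2, at 26.8% (14.2 to 42.9) and 7.69% (5.67 to 10.2). These are shares of cells in 1 library each and carry no test.

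Within a library, cells with a *Fos* UMI can be set beside cells without one. Both classes held at least 50 cells in 4 libraries. By intervals above 0, 5 of the 10 genes were higher in cells with *Fos* in control day 2 (background of 7.32% of all genes), 8 in control day 3 (6.16%), 9 in A20 cKO naive (5.19%) and 9 in A20 cKO day 3 (7.06%). In the same 4 libraries 0 were lower, with backgrounds of 5.41%, 5.59%, 6.71% and 7.57%. Of the 10 genes, *Dusp1* had the highest ratio in each of the 4 libraries, with log2 ratios of 0.87, 1.26, 1.44 and 2.1 in that order. *Btg2* had 0.39, 0.77, 0.96 and 1.48, and *Zfp36* with 0.22, 0.68, 0.64 and 1.11. Cells with *Fos* were deeper in all 4 libraries, with a median of 4871 against 3867 UMIs in A20 cKO day 3. In cells thinned to 2000 UMIs the *Dusp1* ratios lay between 1.21 and 2.15, with intervals above 0 in all 4. The counts above 0 were then 7 in control day 2, 8 in control day 3, 8 in A20 cKO naive and 8 in A20 cKO day 3. *Dusp2* was above 0 in 0 of the 4 after thinning, and no share of all genes is given for thinned cells.

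Among cells without *Fos*, the CPM of *Dusp1* under control was 23.4 for naive, 36.2 for day 2 and 81.0 for day 3. It was at 128 CPM in A20 cKO naive, 11.9 in A20 cKO day 1, 32.2 in A20 cKO day 2 and 78.9 in A20 cKO day 3. *Btg2* was at 807, 243, 206 and 468 CPM in these 4 libraries. A20 cKO naive stood above control naive by a log2 ratio of 2.43 for *Dusp1* in such cells, against 3.27 in all kept cells. The count of genes at least 2-fold lower than in A20 cKO naive was 4 instead of 5 at day 1 in cells without *Fos*, and 5 instead of 6 at day 2. No share of all genes is given for cells without *Fos*, so these counts stand without a background. Control day 1 had only 10 cells without *Fos* and was left out of this comparison, which was chosen after the values were seen.

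**Figure D4:**
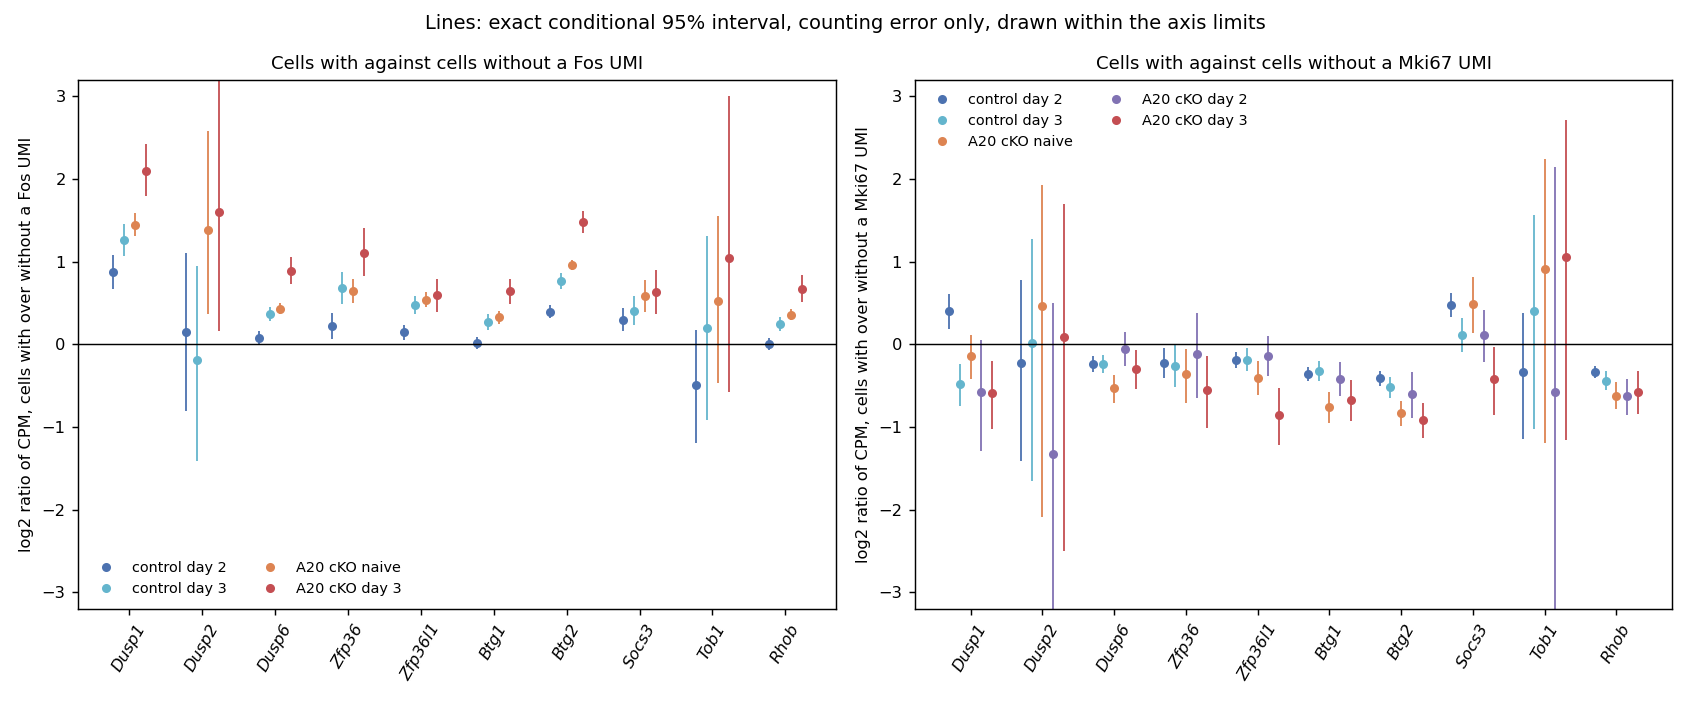
log2 ratio of CPM between cells with and cells without a *Fos* UMI (left) or a *Mki67* UMI (right), for the 10 genes (horizontal axis) in each library that had at least 50 cells in both classes (colours), with exact conditional 95% intervals as lines, cut at the axis limits. The intervals of *Dusp1*, *Zfp36*, *Zfp36l1*, *Btg2* and *Socs3* lie above 0 on the left in all 4 libraries. Those of *Btg1*, *Btg2* and *Rhob* lie below 0 on the right in all 5.

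*Mki67* marks dividing cells, and the BTG and TOB proteins are known to restrain division. In the 5 libraries with at least 50 cells of each class, the intervals of *Btg1*, *Btg2* and *Rhob* lay below 0 in all 5, so these transcripts were lower in cells with a *Mki67* UMI. The log2 ratios of *Btg2* were -0.41 in control day 2, -0.52 in control day 3, -0.83 in A20 cKO naive, -0.61 in A20 cKO day 2 and -0.91 in A20 cKO day 3. Those of *Btg1* were -0.36, -0.32, -0.76, -0.41 and -0.67. Counted by library, 6, 7, 6, 3 and 8 of the 10 genes had intervals below 0, where 10.5%, 11.8%, 10.8%, 11.9% and 10.3% of all genes did. Intervals above 0 were found for 2, 0, 1, 0 and 0 of the 10, with backgrounds of 17.7%, 17.0%, 13.3%, 17.1% and 13.7%. Cells with *Mki67* were deeper, with a median of 5161 against 3703.5 UMIs in control day 2. *Socs3* was higher in cells with *Mki67* in control day 2 and A20 cKO naive, with 0.48 (0.34 to 0.62) and 0.49 (0.14 to 0.81), while in A20 cKO day 3 it was at -0.42 (-0.85 to -0.04). After thinning, which left 4 of these libraries, the counts below 0 were 1 in control day 2, 5 in control day 3, 7 in A20 cKO naive and 3 in A20 cKO day 2. *Dusp6* was then below 0 in 2 libraries instead of 4, and *Zfp36* and *Zfp36l1* in 1 instead of 4. In these thinned cells the interval of *Btg1* lay below 0 in all 4, those of *Btg2* and *Rhob* in 3, and that of *Socs3* above 0 in control day 2 alone. No share of all genes is given for thinned cells, so the counts after thinning stand without a background. *Tob1* could not be read in this way, since its intervals spanned 0 in all 5 libraries.

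The level of *Dusp1* also varied with the class of barcode. In A20 cKO day 1 it was at 11 CPM (7.43 to 15.7) in the 824 kept cells whose barcode was in no other library and at 68.9 CPM (42.6 to 105) in the 62 whose barcode was. In the 44 barcodes below the filter, with a median of 784.5 UMIs, it was at 1740.3 CPM (1331 to 2236), from 61 UMIs, more than the 51 UMIs of all kept cells of that library. The barcodes below the filter also held 829 CPM in control day 3, 823 in A20 cKO naive, 779.6 in A20 cKO day 2 and 1497 in A20 cKO day 3. In control naive they held 71.6 CPM (8.68 to 259), from 2 UMIs. In control day 1 they held 925 CPM (339 to 2013), from 6 UMIs. *Btg2* was at 252 CPM, 184 CPM and 514 CPM in the 3 classes of A20 cKO day 1, and at 867, 1048 and 464 CPM in those of A20 cKO day 3. With all barcodes included, the ratio of A20 cKO day 1 to naive for *Dusp1* was -2.70 instead of -3.79.

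**Figure D5:**
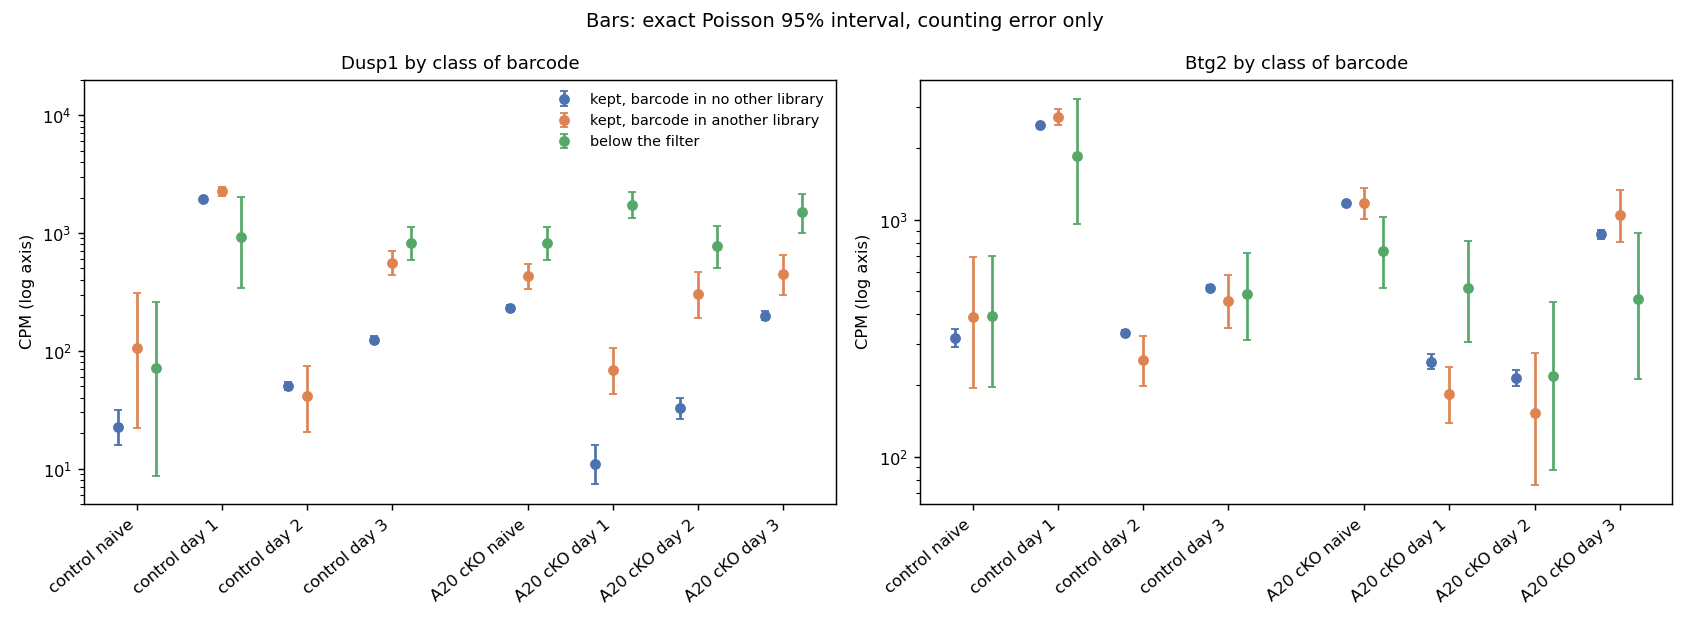
CPM (vertical log axis) of *Dusp1* (left) and *Btg2* (right) in each library for kept cells with a barcode found in no other library (blue), kept cells with a barcode found in another library (orange) and barcodes below the filter (green), with exact Poisson 95% intervals. *Dusp1* is highest below the filter in control day 3 and all A20 cKO libraries, 1740.3 CPM in A20 cKO day 1 against 11 CPM in its kept cells with unshared barcodes, and control day 2 had no barcode below the filter.

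Relatives and partners of these genes were read at the same threshold. In control day 1 against naive, where 3.82% of all genes were higher, of 9 other dual-specificity phosphatases with at least 100 UMIs, 1 was at least 2-fold higher, *Dusp18* at 35.5 against 4.32 CPM. Of 3 SPROUTY and SPRED genes, inhibitors of RAS signalling, 1 was higher, *Spry1* at 22.3 against 2.47 CPM. Of 4 other SOCS genes, 1 was higher, *Socs1* at 16.1 against 7.41 CPM. In control naive *Dusp18*, *Spry1* and *Socs1* had 7, 4 and 12 UMIs, so their ratios are imprecise. 0 of 3 relatives of ZFP36, BTG and TOB, 11 CCR4-NOT genes, 9 decapping and exonuclease genes or 10 MAP kinase genes passed 2-fold in that comparison, and their median log2 ratios lay between -0.55 and 0.11 where that of all genes was -0.13. In A20 cKO naive against control naive, 3 of 11 CCR4-NOT genes were higher and 1 lower, with backgrounds of 7.43% and 2.22%. Control day 3 against control naive gave the same counts, 3 and 1 of 11, with backgrounds of 8.76% and 2.32%, and between genotypes at day 3 the count was 0 of 11 in both directions. *Cnot1*, the scaffold of the complex, was at 63.1 against 27.8 CPM, *Cnot10* and *Rqcd1* at log2 ratios of 1.15 and -1.41, and the exonuclease gene *Xrn1* at 124 against 53.7 CPM. At day 1, A20 cKO was higher than control in 3 of 9 decapping and exonuclease genes, where 15.5% of all genes were, and *Xrn1* was at 139 against 33.7 CPM. In control day 3 *Cnot1* was at 67.7 and *Xrn1* at 135 CPM, within the ranges of the A20 cKO libraries, 60 to 75.3 and 112 to 139 CPM.

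Transcripts with AU-rich elements that TTP is known to bind were followed as a list, which shares *Ier3* with the isolation-associated genes. Of 7 with at least 100 UMIs, 5 were at least 2-fold higher and 1 lower in control day 1 than in control naive, with backgrounds of 3.82% and 7.25% and a median log2 ratio of 3.22. The chemokine gene *Ccl2* had control levels of 7.41, 502, 88.6 and 263 CPM, and reached 201, 562, 477 and 576 CPM under A20 cKO. *Tnf* had 16.7, 158, 37.4 and 34.9 CPM under control, while A20 cKO levels were 54.2, 65.7, 56.0 and 124 CPM. Against A20 cKO naive, 1 of 7 was higher and 0 lower at day 1, and 1 higher and 1 lower at day 2, where 1.56% and 1.39% and then 2.86% and 2.65% of all genes were. The list's median log2 ratios were 0.28 and 0.05. *Ccl2* was the higher one both times, at 1.48 (1.39 to 1.58) and 1.25 (1.14 to 1.35), and *Il6* the lower one, at -2.48 (-3.42 to -1.75). At day 3, 3 of 7 were higher and 1 lower, with backgrounds of 1.92% and 2.00% and a median of 0.71. Against control, A20 cKO had 3 of 7 higher and 0 lower in naive, and 0 higher and 3 lower at day 1. At day 2, 2 of 6 were higher and 1 lower, and at day 3, 3 of 6 and 0. Backgrounds in that order were 7.43% and 2.22%, 15.5% and 3.25%, 10.7% and 4.66%, and 1.86% and 2.40%.

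The genes outside the group whose levels over the 8 libraries were most like each member, by the root mean square difference of centred log2 CPM among 3275 genes of at least 50 CPM on average, included the early genes *Ier2* and *Junb*. *Ier2* was nearest to *Dusp1* at 0.72, *Junb* to *Zfp36* at 0.28 and to *Btg2* at 0.42, and *Sgk1*, a kinase gene induced by glucocorticoids, to *Dusp6* at 0.16. *Pnrc1* was nearest to both *Btg1*, at 0.17, and *Rhob*, at 0.18. *Cited2* was nearest to *Zfp36l1* at 0.16, *Tnf* to *Socs3* at 0.45, *Nfkbiz* to *Dusp2* at 0.33 and *Rgs2* to the scarce *Tob1* at 0.56. Across all candidate genes the median difference was 2.12 for *Dusp1* and 0.52 for *Btg1*. The libraries share depth and preparation across all genes, and likeness over 8 libraries is a description.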

How the data were processed

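UMI counts per gene and cell barcode were used as deposited; the authors' matrices held raw counts without normalization, for 8 libraries sorted from lumbar cord. The submitters' processing notes name Cell Ranger 2.1.1 and mm10, without the role of each. The study filtered its cells at thresholds not given in the sources used here.

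Kept cells had at least 1000 UMIs, 500 genes and at most 10% mitochondrial UMIs. The authors excluded doublets in the sorting gate. No doublet caller was run on the barcodes, so doublets formed after sorting may remain. UMIs were summed per library and scaled to CPM, with exact Poisson intervals. log2 ratios had 0.5 UMIs added and exact conditional intervals. Shares were of cells thinned to 2000 UMIs, which left out between 20 and 310 cells per library, 935 in all. Background shares are of genes for which both sums came to 100 or more UMIs. Each group had 1 library, so no test was run. A deeper library has narrower intervals, and none covers spread between animals.

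The 10 genes and all lists were chosen with earlier results of these data known, and 1 of the gene lists is not reported here. Named genes were the 10, up to 3 genes per list and comparison with the largest ratios past 2-fold, and the genes nearest in pattern to each of the 10. Other genes named were chosen after their values were seen. Lists of cell type markers were used for a check of the sorted cells, and those of border macrophages, T cells, astrocytes, endothelium and neurons summed to at most 51.2 CPM in any library. Coordinates are from GENCODE M21 (GRCm38), which held 27645 of the 27998 gene IDs. The calculation of ratios and intervals was checked on simulated Poisson sums. These hold no spread between animals, libraries or cells, so that check does not cover such spread. Alternatives were 2 other scalings (median-of-ratios and edgeR 4.0.16 TMM factors), mean of cell CPM, thinning, other cell filters and removal of shared barcodes. Python 3.11.15, numpy 2.4.6, scipy 1.17.1, pandas 2.3.3 and R 4.3.3 were used.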

Additional observations from a re-analysis of the deposited data

Results flagged for a closer look

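4 genes were at least 2-fold higher at day 1 than naive in control and at least 2-fold lower in A20 cKO. The share of all genes that met both criteria is not given here, so this count cannot be set against one. Taken singly, 3.82% of all genes were higher in control day 1 and 1.39% lower in A20 cKO day 1 than in the naive library. The difference between both log2 ratios, control minus A20 cKO, was 10.11 for *Dusp1* (6.32 and -3.79), 5.24 for *Btg2* (2.97 and -2.27), 3.72 for *Zfp36* (2.34 and -1.38) and 2.15 for *Rhob* (1.08 and -1.07). At day 2 the same held for *Dusp1*, with a difference of 3.63 (1.04 and -2.59), but its control ratio was below 2-fold with the mean of cell CPM (0.92), thinned cells (0.79), no cell filter (0.99) and cells without *Fos* (0.61). With 1 library per group these differences were not tested.

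Barcodes below the cell filter entered only the alternative with no cell filter. Among genes with at least 10 UMIs in them in an A20 cKO library, 2 were above the level in such barcodes of control naive, day 1 and day 3, and control day 2 had none. *Dusp1* was at 1740.3 CPM in A20 cKO day 1 and 1497 CPM in A20 cKO day 3. *Zfp36l1* was at 599 CPM in A20 cKO day 1 and 722.5 CPM in A20 cKO day 3. *Dusp2* and *Tob1*, at 0 in such barcodes under control, had 6 UMIs or fewer. These differences rest on few UMIs and were not tested.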

How the results depend on the processing

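No paired analysis was possible because each group had 1 library and no replicate numbers link them. Leaving out a replicate was not possible for the same reason. Of 960 member ratios under 9 alternatives, 810 stayed within the counting interval of the value given and 150 moved out of it. No ratio of at least 2-fold changed direction under any of them. Of 192 counts of members past 2-fold, 178 stayed within 1.5 times. The others follow. Higher in control day 2 against naive, 2 became 1 with the mean of cell CPM, with thinned cells, with no cell filter and in cells without *Fos*. Higher in A20 cKO naive against control naive, 4 became 2 with thinned cells. Higher in A20 cKO day 2 against control day 2, 1 became 0 with thinned cells. Higher in A20 cKO day 1 and day 2 against naive, 0 became 1 in cells without *Fos*, and for day 3, 0 became 1 with thinned cells and with another thinning seed. Higher in A20 cKO day 3 against control day 3, 0 became 1 under median-of-ratios and TMM factors, with thinned cells and without shared barcodes. Another thinning seed and the cells without *Fos* were chosen after seeing the data. The cause of these moves was not tested.

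Median-of-ratios scaling moved all log2 ratios of a comparison by 0.18 for control day 1 against naive, 0.13 for day 2 and -0.28 for A20 cKO day 1 against control day 1. Genes higher and lower were then 512 and 388 instead of 339 and 643, 692 and 379 instead of 549 and 583, and 816 and 661 instead of 1420 and 298. For A20 cKO day 2 against control day 2 they were 827 and 608 instead of 1014 and 442, for A20 cKO day 3 against control day 3, 202 and 147 instead of 158 and 204, and for A20 cKO day 3 against naive, 220 and 130 instead of 169 and 176. TMM gave 909 and 567 for A20 cKO day 1 against control day 1. The splits under TMM were 461 and 437 for control day 1 and 627 and 438 for control day 2 against naive, 231 and 125 for A20 cKO day 3 against naive, and 203 and 147 for A20 cKO day 3 against control day 3. Without the minimum of 100 UMIs all 22 counts were over 1.5 times higher, 742 to 4356 in place of 124 to 1420. The largest moves among genes with ample UMIs were of *Dusp1* in A20 cKO day 1 with no cell filter, to -2.70 against A20 cKO naive and -5.73 against control day 1. With the mean of cell CPM *Dusp1* in A20 cKO day 2 against control day 2 was 0.25 instead of -0.36. Of 240 shares of cells, 143 moved out of their interval under other thinning or filters, so the shares are read within 1 setting. Depth limited *Dusp2* and *Tob1*, for which 3 UMIs in control naive correspond to 1.85 CPM.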
